A study of Mus musculus with 33 samples.

Results

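The CD8 T cell populations of mouse skin at day 2 after a hapten challenge were compared, 2 sorted subsets against the other 2. They account for 8 of the 33 libraries of the series: 4 libraries with the header codes 1_02 and 1_03, against 4 libraries with the codes 1_04 and 1_05, chosen by their columns in the count table. All 18052 gene rows of that table entered. The mice were wild-type C57BL/6, sensitized with dinitrofluorobenzene (DNFB, a hapten that causes allergic contact dermatitis), challenged with it again and left without treatment. CD8+ cells were separated into 4 subsets by surface CD69 and CD103, and RNA of each sorted population was sequenced in bulk by CEL-seq2, a protocol that reads the 3′ end of transcripts. The headers leave a single reading for 1_03 only, the CD69+CD103+ subset. Codes 1_02, 1_04 and 1_05 hold the CD69+CD103-, CD69-CD103- and CD69-CD103+ subsets in an order that the headers used here do not fix, so the headers do not say along which marker the split runs, and the codes are kept as names. The labels give each subset as a sample A and a sample B, but the 2 headers of a code are the same, and the libraries are numbered 1 and 2 here. Age and sex of the mice, and whether A and B came from separate mice, are not given in the sources used here. The p-values therefore measure the spread between libraries of the same code, which may be technical. That spread was estimated over all 16 libraries of the second experiment. Besides the day 2 libraries, these are CD69+CD103+ cells of later days, labelled as treated with acetone or TA.

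CD8 T cells that enter inflamed skin can recirculate or stay. CD69 binds the sphingosine 1-phosphate receptor S1PR1 and removes it from the cell surface, which blocks exit into lymph, and CD103 (the αE integrin, gene Itgae) binds E-cadherin of epithelial cells. The transcription factor KLF2 drives S1pr1, and antigen receptor signalling switches KLF2 off while it switches on chemokine, cytokine and granzyme genes.

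The 8 libraries held 3384434 to 13629838 counts and 10514 to 12806 detected genes, with 12.8% to 19.1% of counts on mitochondrial genes. Library 1 of 1_02 had the fewest counts and genes and lay apart from the other 7 on the first principal component, which carried 25.3% of the variance. Pearson's r of log2 CPM (each count as a share of its library's total) was 0.872 to 0.930 between the 2 libraries of a code and 0.845 to 0.924 between codes.

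Of 12236 genes tested, 203 (1.66%) were called at an adjusted p under 0.05 (edgeR quasi-likelihood test, Benjamini-Hochberg over all genes tested): 92 (0.752%) were higher in 1_02 and 1_03, and 111 (0.907%) were lower. At an unadjusted p under 0.05 there were 620 higher and 845 lower, together 11.97% of all genes tested. Counts of list members at an unadjusted p given below are to be read beside this share. The 4 libraries of 1_02 and 1_03 lay above all 4 libraries of 1_04 and 1_05 in 474 genes tested (3.87%) and below them in 520 (4.25%), among them 81 of the 92 called higher and 90 of the 111 called lower. The change was over 2-fold in 50 and 70 of the called genes. Without 1 library the count of calls ran from 89 (without library 1 of 1_03) to 251 (without library 2 of 1_02). It was 117 without library 2 of 1_03, 115 without library 2 of 1_04, 113 without library 2 of 1_05 and 147 without library 1 of 1_02. In those fits, and in the fits without the 2 libraries of 1_03 or of 1_05, all 203 genes kept their direction. Without the 2 libraries of 1_02, 198 kept it, and without those of 1_04, 202 did. Below, a log2 fold change is the mean of 1_02 and 1_03 minus the mean of 1_04 and 1_05, and CPM values are scaled by trimmed mean of M values (TMM). Some genes were named by a rule that requires no overlap between the sides, so their separation below is no test.

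The genes called higher included chemokines, cytokines and granzymes, and those called lower included genes of exit from tissue. To show where the gene with the smallest p and the transcription factor of the exit genes start, the promoter windows of Ccl1 and Klf2 are printed (RefSeq, GRCm38.p6, from 250 bases before to 50 after the gene's start, 5′ to 3′ on the gene's strand). They lie at chr11:82179763-82180062, minus strand, and at chr8:72318812-72319111, plus strand. Capitals mark matches, on either strand, to 6 letter patterns chosen after the calls were known. The AP-1 pattern was TGANTCA, a site of Fos and Jun factors. NFAT, which calcium signals activate, was searched as its core TGGAAA. For FOXO factors, which drive Klf2 in resting T cells, the letters were GTAAACA. KLF factors were searched as CCACACCC and the promoter element that places the start of many genes, the TATA box, as TATAAA. NF-kB, which antigen receptor and TNF receptor signals activate, was searched as GGGA, then any 3 bases, then TCC.
Ccl1: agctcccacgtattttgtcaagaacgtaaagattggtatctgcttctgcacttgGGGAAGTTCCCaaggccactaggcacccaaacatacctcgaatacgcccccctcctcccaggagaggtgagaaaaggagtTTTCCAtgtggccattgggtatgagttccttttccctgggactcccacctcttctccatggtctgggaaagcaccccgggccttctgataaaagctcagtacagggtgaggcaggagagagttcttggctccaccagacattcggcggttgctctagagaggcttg
Klf2: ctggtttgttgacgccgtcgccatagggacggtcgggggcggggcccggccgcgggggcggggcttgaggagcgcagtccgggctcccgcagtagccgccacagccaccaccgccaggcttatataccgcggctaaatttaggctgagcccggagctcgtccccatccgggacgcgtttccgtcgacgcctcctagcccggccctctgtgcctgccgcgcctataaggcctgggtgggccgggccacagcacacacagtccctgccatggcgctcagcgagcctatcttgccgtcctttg
The Ccl1 window holds the NFAT letters once, from 116 bases before the start, and the NF-kB letters in overlapping matches on both strands from 196 bases before it. None of the 6 patterns is in the Klf2 window. Among genes with a promoter entry, the NFAT letters stood in 19 of 76 genes called higher (25.0%), in 14 of 84 called lower (16.7%) and in 21.5% of all 27025 promoters. The NF-kB letters stood in 8 of 76 (10.5%) and 6 of 84 (7.14%), against 4.55% of all promoters. The FOXO letters stood in 0 of 76 genes called higher and 8 of 84 called lower (9.52%), against 3.55% of all promoters. The AP-1, KLF and TATA letters stood in 9, 7 and 15 of the 76 and in 7, 3 and 13 of the 84, against 7.93%, 3.57% and 14.2% of all promoters. These are matches of letters, not measured binding. The 27025 promoters include genes that were not tested and so could not be called, and the share among tested genes was not computed. The shares are therefore no measure of enrichment. Of the 8 genes called lower with the FOXO letters, 4 are printed with 10 bases on either side, and the rest, among them Sox12, are not. The 4 are Ltb (lymphotoxin beta), Abcb1a (a drug efflux transporter), Hbp1 (a repressor of cell cycle genes) and Fcgrt (the neonatal Fc receptor). Their windows are Ltb chr17:35194373-35194399, plus strand and Abcb1a chr5:8567061-8567087, plus strand, and Hbp1 chr12:31950378-31950404, minus strand and Fcgrt chr7:45103922-45103948, minus strand.
Ltb: ccagcgctggGTAAACAggaagctggg
Abcb1a: ttgagctgggGTAAACAtgctgtcact
Hbp1: accttctccaGTAAACAcaagagaaaa
Fcgrt: ctccaaacgaGTAAACAtagaagctgt
Their log2 fold changes were -1.22 ± 0.27 (SE), -1.505 ± 0.30 (SE), -1.05 ± 0.22 (SE) and -4.61 ± 0.70 (SE) in that order. Ltb and Fcgrt each lay lower in all 4 libraries of 1_02 and 1_03 than in any library of 1_04 and 1_05.

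The mRNA of the 2 sort markers did not separate the sides. Itgae mRNA was 7.35 and 3.60 CPM in 1_02 and 70.7 and 88.7 CPM in 1_03, against 5.32 and 1.07 CPM in 1_04 and 92.5 and 77.1 CPM in 1_05. It was thus high in 1_03 and 1_05 and low in 1_02 and 1_04, 1 high and 1 low code on each side, and its log2 fold change was 0.24 ± 0.30 (SE) with an adjusted p of 0.846. Cd69 mRNA was 415 and 388 CPM in 1_02 and 528 and 370.4 CPM in 1_03, against 371 and 329.8 CPM in 1_04 and 524 and 429.7 CPM in 1_05. These ranges overlap (log2 fold change 0.055 ± 0.15, adjusted p = 0.974). Surface CD69 is set partly after transcription, and Cd69 mRNA is no measure of the CD69 gate. Itgae mRNA in 1_05 lay near that in 1_03, the CD69+CD103+ subset, but which gate 1_05 holds was not tested. Cd8a, which encodes a chain of the CD8 co-receptor, averaged 718 ± 51.9 CPM in 1_02 and 1_03 and 754 ± 111 CPM in 1_04 and 1_05 (SD, n = 4 each), and none of Cd8a, Cd8b1, Cd3d, Cd3e and Cd3g was called.

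**Figure D1:**
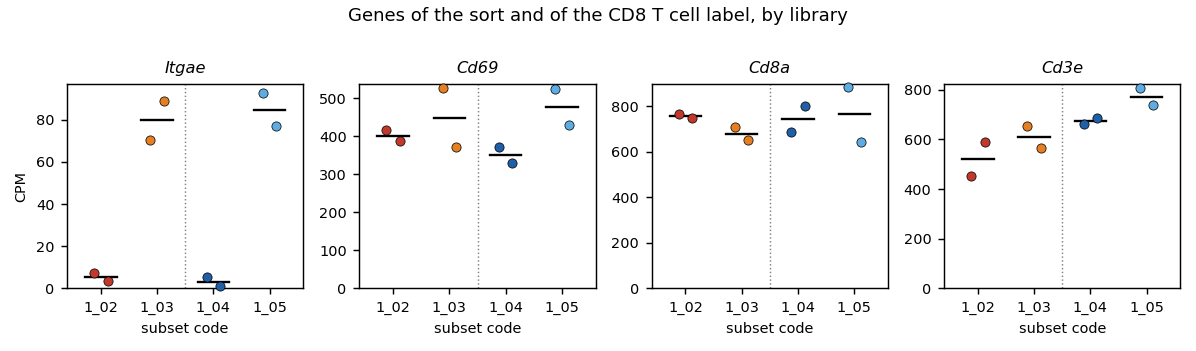
CPM (TMM-scaled) of Itgae, Cd69, Cd8a and Cd3e in each of the 8 libraries, by subset code. Points are libraries, bars are the mean of the 2 libraries of a code, and the dotted line parts 1_02 and 1_03 from 1_04 and 1_05. Itgae lies at 70.7 CPM or more in 1_03 and 1_05 and at 7.35 CPM or less in 1_02 and 1_04.

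Chemokine mRNA was higher in 1_02 and 1_03 for 4 of 11 tested T cell chemokines, and 1 was lower. The median log2 fold change of the list was 0.80, against -0.029 over all genes tested. In bulk samples, more cells that express a gene and more of its RNA per cell cannot be told apart. Ccl1, the ligand of CCR8, had 79.6 and 67.6 CPM in 1_02 and 131 and 136 CPM in 1_03, against 4.61 and 2.56 CPM in 1_04 and 4.38 and 8.71 CPM in 1_05. Its averages were 104 ± 35.0 CPM in 1_02 and 1_03 and 5.06 ± 2.60 CPM in 1_04 and 1_05 (SD, n = 4 each), the log2 fold change was 4.34 ± 0.28 (SE) and the adjusted p was 1.29e-07, the smallest of all genes. The groups were far apart, and within the upper group Ccl1 was higher in both 1_03 libraries than in both 1_02 libraries. Xcl1, which attracts cross-presenting dendritic cells, had 374 and 444 CPM in 1_02 and 481 and 447 CPM in 1_03, against 65.0 and 82.9 CPM in 1_04 and 110.5 and 47.3 CPM in 1_05 (log2 fold change 2.51 ± 0.23 (SE), adjusted p = 7.83e-06). Ccl3 had 878 and 507 CPM in 1_02 and 409 and 363 CPM in 1_03, against 166 and 141 CPM in 1_04 and 139 and 90.0 CPM in 1_05 (log2 fold change 1.96 ± 0.18 (SE), adjusted p = 4.9e-06). Ccl4, like Ccl3 an inflammatory chemokine that attracts T cells and monocytes, had 1890.0 and 1793 CPM in 1_02 and 1005 and 849 CPM in 1_03, against 419 and 429 CPM in 1_04 and 460.0 and 253 CPM in 1_05 (log2 fold change 1.75 ± 0.15 (SE), adjusted p = 4.9e-06). In contrast to Ccl1, Ccl3 and Ccl4 were highest in the 1_02 libraries. Ccl5, a chemokine that effector and memory CD8 T cells hold ready, went the other way with 949.7 and 767 CPM in 1_02 and 279.8 and 219 CPM in 1_03, against 1719 and 1649 CPM in 1_04 and 683 and 537 CPM in 1_05. It was lower by 1.13 on the log2 scale (adjusted p = 0.000118), but the sides overlapped, because 1_02 lay above 1_05. The calls of Ccl1, Xcl1, Ccl3 and Ccl4 held under all 17 alternatives, and that of Ccl5 was lost in 3 of them. Ccl3, Ccl4 and Ccl5 lie close together on chromosome 11 (GRCm38, GENCODE vM21: Ccl3 at chr11:83647844-83649355, Ccl4 at chr11:83662584-83664683, Ccl5 at chr11:83525778-83530518), and Ccl5 went in the opposite direction to its neighbours.

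Cytokine genes formed the list with the highest median change: 7 of 22 tested were called higher and 1 lower, with a median log2 fold change of 1.76. Ifng, the signature cytokine of cytotoxic T cells, had 825 and 933 CPM in 1_02 and 353 and 381 CPM in 1_03, against 187 and 198 CPM in 1_04 and 113 and 171 CPM in 1_05. It averaged 623 ± 299 CPM in 1_02 and 1_03 and 167 ± 37.9 CPM in 1_04 and 1_05 (SD, n = 4 each; log2 fold change 1.78 ± 0.18 (SE), adjusted p = 1.42e-05), and its highest values were again in 1_02. Il13, a type 2 cytokine of allergic inflammation, had 58.5 and 66.0 CPM in 1_02 and 97.6 and 109 CPM in 1_03, against 1.74 and 5.12 CPM in 1_04 and 7.70 and 5.50 CPM in 1_05 (log2 fold change 4.10 ± 0.39 (SE), adjusted p = 6.72e-06). Il17a, which acts on keratinocytes to recruit neutrophils, had 39.2 and 50.8 CPM in 1_02 and 41.8 and 25.7 CPM in 1_03, against 5.12 and 3.62 CPM in 1_04 and 4.54 and 4.58 CPM in 1_05 (log2 fold change 3.12 ± 0.45 (SE), adjusted p = 0.00105). All 4 libraries of 1_02 and 1_03 lay above those of 1_04 and 1_05 for these cytokines, which a rule that named Il13 and Il17a requires. Il3, a growth factor of basophils and mast cells, had 11.0 and 2.74 CPM in 1_02 and 78.7 and 43.0 CPM in 1_03, against 0.102 and 0 CPM in 1_04 and 0.649 and 0 CPM in 1_05 (log2 fold change 6.79 ± 0.94 (SE), adjusted p = 0.000666). Csf2, which encodes GM-CSF and is too low for the rule by which genes were named, had 7.65 and 4.29 CPM in 1_02 and 11.7 and 8.64 CPM in 1_03, against 0 and 0.213 CPM in 1_04 and 0.568 and 0.305 CPM in 1_05 (log2 fold change 5.18 ± 1.02 (SE), adjusted p = 0.012), a call that was lost in 4 of 8 fits without 1 library. Il3, Csf2 and Il13 belong to the type 2 cytokine cluster of chromosome 11, which spans chr11:53602982-54267277 from Il4 to Il3. Its other members were nearly silent: Il4 had no count in any of the 8 libraries, and Il5 had at most 0.265 CPM. Csf1 averaged 72.9 ± 7.24 CPM in 1_02 and 1_03 and 30.3 ± 11.8 CPM in 1_04 and 1_05, and Areg (amphiregulin, an epithelial growth factor) averaged 35.4 ± 8.35 CPM in 1_02 and 1_03 and 9.47 ± 4.68 CPM in 1_04 and 1_05 (SD, n = 4 each). Both were called higher, with log2 fold changes of 1.29 ± 0.19 (SE) and 1.87 ± 0.30 (SE). Il2 lay above in every library of 1_02 and 1_03 (3.98 to 18.2 CPM, against 0 to 1.62 CPM in 1_04 and 1_05), but its adjusted p was 0.0627. Tnf did not pass either (15.1 to 37.3 CPM, against 14.5 to 22.3 CPM in 1_04 and 1_05, adjusted p = 0.526). Ltb, needed for lymphoid tissue structure, was the member called lower, with 31.2 and 36.7 CPM in 1_02 and 36.0 and 23.0 CPM in 1_03, against 69.1 and 67.8 CPM in 1_04 and 71.3 and 87.8 CPM in 1_05 (log2 fold change -1.22 ± 0.27 (SE), adjusted p = 0.0264). Its call was lost in 6 of 8 fits without 1 library. The calls of Ifng, Il13, Il17a and Il3 held under all 17 alternatives.

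**Figure D2:**
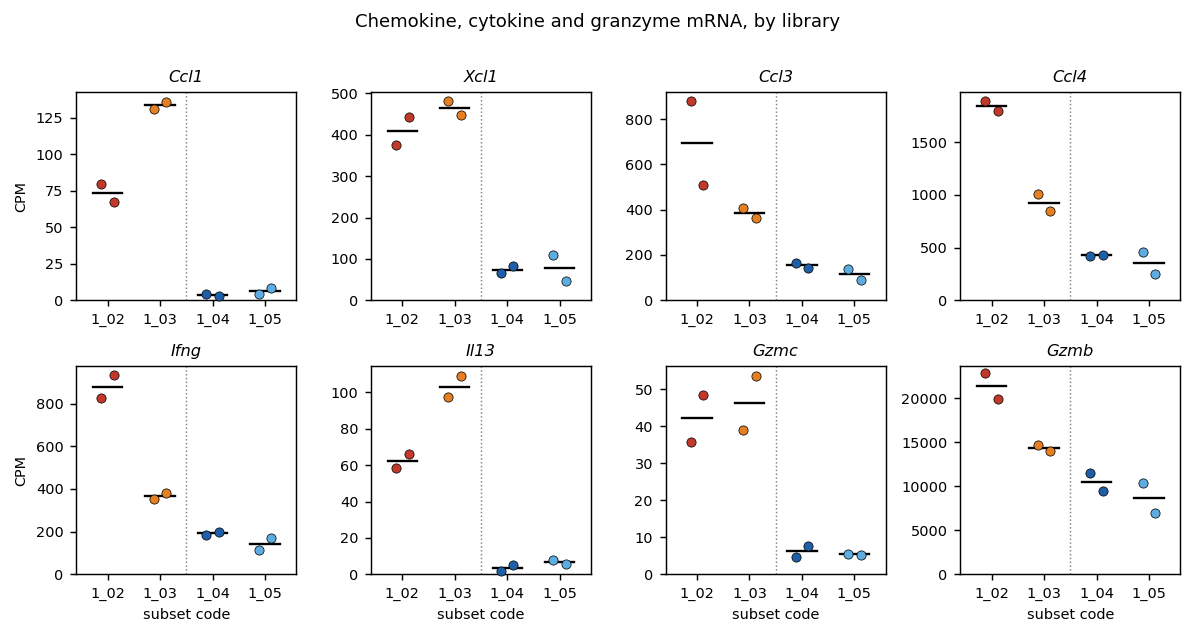
CPM (TMM-scaled, linear axes from 0) of chemokine, cytokine and granzyme genes in each library, by subset code, with the mean of each code as a bar. For all 8 genes the 4 libraries of 1_02 and 1_03 lie above the 4 of 1_04 and 1_05, while the order of 1_02 and 1_03 differs between genes. The genes were picked with their values known, some by a rule that requires no overlap, so the separation is no test. Ccl5, whose sides overlap, is not shown.

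Among 22 tested genes of the cytotoxic granule 3 were called higher, none was called lower (0 at an unadjusted p under 0.05, and 0 by DESeq2), and the median log2 fold change was 0.15. All 3 were granzymes encoded within chr14:56117626-56262260. Gzmb, the main serine protease of killer cells, was abundant on both sides, with 22799 and 19912 CPM in 1_02 and 14633 and 13992 CPM in 1_03, against 11526 and 9475 CPM in 1_04 and 10355 and 6944 CPM in 1_05 (log2 fold change 0.88 ± 0.13 (SE), adjusted p = 0.00143). Gzmc, a granzyme of strongly stimulated cells, had 35.8 and 48.5 CPM in 1_02 and 38.9 and 53.7 CPM in 1_03, against 4.71 and 7.67 CPM in 1_04 and 5.43 and 5.35 CPM in 1_05 (log2 fold change 2.95 ± 0.24 (SE), adjusted p = 1.93e-06). Gzmf had 19.6 and 13.4 CPM in 1_02 and 15.5 and 13.8 CPM in 1_03, against 0.717 and 0 CPM in 1_04 and 2.84 and 3.36 CPM in 1_05 (log2 fold change 3.67 ± 0.33 (SE), adjusted p = 4.9e-06). Gzmc and Gzmf resemble Gzmd and Gzme in sequence, so reads between them may be split uncertainly. Gzmd stood at 0.857 CPM or less in every library, and Gzme at 1.2 CPM or less. The call of Gzmc held under all 17 alternatives. That of Gzmb was lost without the 2 libraries of 1_02 (edgeR adjusted p = 0.151), and that of Gzmf with 1 mean per side (edgeR adjusted p = 0.0592). Prf1 (perforin) averaged 5.84 ± 2.21 CPM in 1_02 and 1_03 and 5.58 ± 2.10 CPM in 1_04 and 1_05 and Gzma 235 ± 89.0 CPM in 1_02 and 1_03 and 208 ± 64.3 CPM in 1_04 and 1_05 (SD, n = 4 each), and neither was called.

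Genes that follow antigen receptor signalling were called higher in 7 of 42 tested and lower in 1, with a median log2 fold change of 0.45. DESeq2 called 10 higher and 3 lower. edgeR called 3 higher and 0 lower without the 2 libraries of 1_02, and 3 higher and 1 lower without those of 1_04. Tnfsf11 (RANKL) had 58.2 and 35.8 CPM in 1_02 and 53.5 and 44.7 CPM in 1_03, against 6.55 and 8.74 CPM in 1_04 and 12.9 and 15 CPM in 1_05 (log2 fold change 2.22 ± 0.25 (SE), adjusted p = 5.81e-05). Tnfrsf4 (OX40), a costimulatory receptor, had 154 and 188 CPM in 1_02 and 229.9 and 180.4 CPM in 1_03, against 64.8 and 74.8 CPM in 1_04 and 86.7 and 69.0 CPM in 1_05 (log2 fold change 1.35 ± 0.25 (SE), adjusted p = 0.00695). Tnfrsf9 (4-1BB), another, had 645 and 597 CPM in 1_02 and 511 and 494 CPM in 1_03, against 351 and 299.5 CPM in 1_04 and 353 and 285 CPM in 1_05 (log2 fold change 0.79 ± 0.13 (SE), adjusted p = 0.00218). None of these genes overlapped between the sides. The call of Tnfrsf4 was lost without the 2 libraries of 1_04, and that of Tnfrsf9 without the 2 libraries of 1_02. Il2ra, the high-affinity chain of the interleukin 2 receptor, averaged 351 ± 81.5 CPM in 1_02 and 1_03 and 186 ± 15.3 CPM in 1_04 and 1_05 (SD, n = 4 each, adjusted p = 0.0116). Gem (a small GTPase), Nfkbid (an IκB family member) and Myc were also called higher, with log2 fold changes of 1.49 ± 0.23 (SE), 0.72 ± 0.16 (SE) and 0.90 ± 0.21 (SE). Of these, the calls of Il2ra, Nfkbid and Myc were lost in 2, 3 and 7 of the 8 fits without 1 library (largest adjusted p 0.061, 0.145 and 0.216). Nr4a1, the immediate early gene behind the Nur77 reporter, averaged 228 ± 24.3 CPM in 1_02 and 1_03 and 225 ± 15.2 CPM in 1_04 and 1_05 (SD, n = 4 each) and was not called (log2 fold change 0.016 ± 0.13). Fosl2, an AP-1 subunit, was the member called lower (log2 fold change -0.65 ± 0.12 (SE), adjusted p = 0.00623). Rgs16, which restrains chemokine receptor signals and is in none of the lists, had 124 and 238 CPM in 1_02 and 123 and 116 CPM in 1_03, against 43.7 and 73.3 CPM in 1_04 and 24.3 and 23.4 CPM in 1_05 (log2 fold change 1.98 ± 0.26 (SE), adjusted p = 0.000339). Of 25 tested inhibitory receptor genes only Havcr2 (TIM-3) was called, with 398 and 414 CPM in 1_02 and 364 and 281 CPM in 1_03, against 199 and 197 CPM in 1_04 and 225 and 239 CPM in 1_05 (log2 fold change 0.76 ± 0.14 (SE), adjusted p = 0.00638), a call lost without library 1 of 1_03 (adjusted p = 0.0548). Ctla4 averaged 646 ± 63.7 CPM in 1_02 and 1_03 and 685 ± 38.5 CPM in 1_04 and 1_05 and Pdcd1 (PD-1) 89.7 ± 34.5 CPM in 1_02 and 1_03 and 126 ± 31.6 CPM in 1_04 and 1_05 (SD, n = 4 each), neither of them called.

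The list of tissue exit and recirculation genes had 10 of 40 tested genes called lower in 1_02 and 1_03 and 1 called higher, with a median log2 fold change of -0.70. S1pr1, the receptor that guides T cells into lymph and blood, had 137 and 81.8 CPM in 1_02 and 114 and 90.9 CPM in 1_03, against 389.7 and 377 CPM in 1_04 and 493 and 398 CPM in 1_05. It averaged 106 ± 25.0 CPM in 1_02 and 1_03 and 414 ± 53.2 CPM in 1_04 and 1_05 (SD, n = 4 each; log2 fold change -1.96 ± 0.27 (SE), adjusted p = 0.000698), and the sides were far apart. Klf2, its transcriptional activator, had 53.0 and 52.6 CPM in 1_02 and 82.9 and 90.5 CPM in 1_03, against 275 and 308 CPM in 1_04 and 252 and 265 CPM in 1_05 (log2 fold change -2.02 ± 0.20 (SE), adjusted p = 8.82e-06). Klf2 was lowest in 1_02, and its sides were also far apart. Tcf7, which encodes TCF1 of stem-like and memory cells, had 15.6 and 6.86 CPM in 1_02 and 21.9 and 19.9 CPM in 1_03, against 66.0 and 56.3 CPM in 1_04 and 66.8 and 73.5 CPM in 1_05 (log2 fold change -2.11 ± 0.36 (SE), adjusted p = 0.00342). Lef1, a related factor, had 19.3 and 18.5 CPM in 1_02 and 20.4 and 26.6 CPM in 1_03, against 133 and 90.6 CPM in 1_04 and 83.9 and 107 CPM in 1_05 (log2 fold change -2.29 ± 0.46 (SE), adjusted p = 0.0149). Both factors were thus lower in each library of 1_02 and 1_03 than in any of 1_04 and 1_05, which the rule that named Lef1 requires. S1pr4, Itgb7 and Itgb1 (integrin β chains of homing), Nsg2 and Kbtbd11 were also called lower, with log2 fold changes of -0.83, -0.77, -0.89, -1.13 and -1.34. Zeb2, a factor of terminal effector cells, was the member called higher, with 58.8 and 35.8 CPM in 1_02 and 42.1 and 54.0 CPM in 1_03, against 24.2 and 19.2 CPM in 1_04 and 11.3 and 10.2 CPM in 1_05 (log2 fold change 1.64 ± 0.32 (SE)). Ccr7, the lymph node homing receptor, averaged 227 ± 53.7 CPM in 1_02 and 1_03 and 234 ± 24.5 CPM in 1_04 and 1_05 (SD, n = 4 each), and its adjusted p was 0.987. The calls of S1pr1 and Klf2 held under all 17 alternatives, and that of Tcf7 in all 8 fits without 1 library. Lef1 lost its call in 6 of those 8 fits (largest adjusted p 0.127), and S1pr4, Itgb7, Nsg2 and Kbtbd11 in 5, 5, 6 and 7. The count of members called lower was 4 without library 1 of 1_02, and also without library 1 of 1_04. Without the 2 libraries of 1_02 it was 2.

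**Figure D3:**
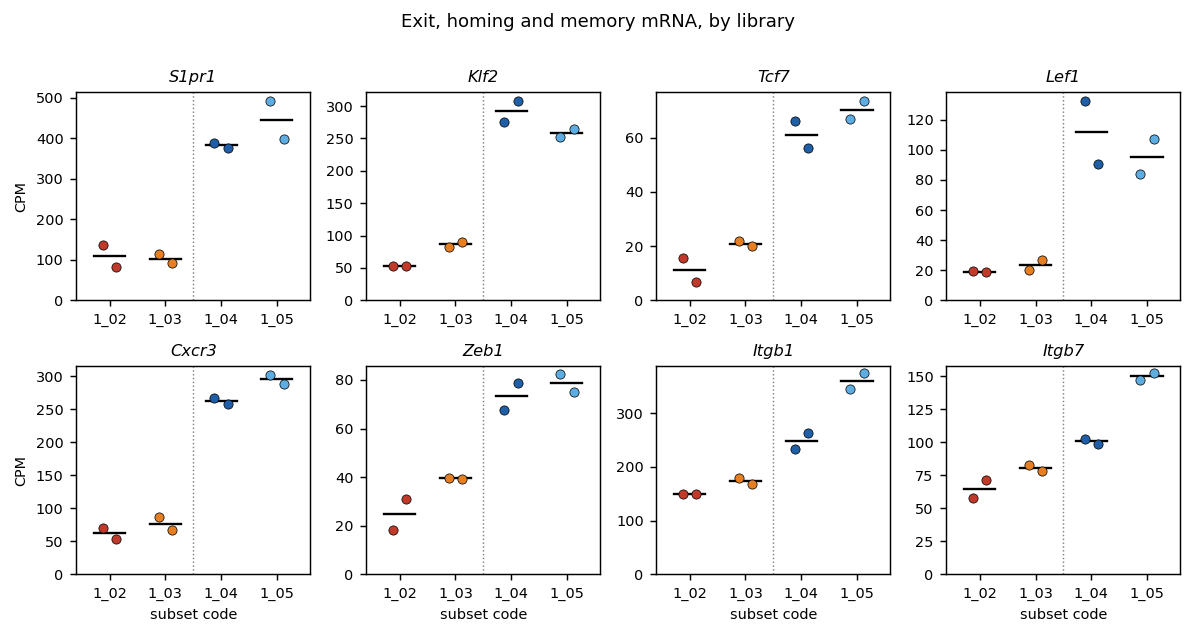
CPM (TMM-scaled, linear axes from 0) of exit, homing and memory genes in each library, by subset code, with the mean of each code as a bar. For all 8 genes the 4 libraries of 1_02 and 1_03 lie below the 4 of 1_04 and 1_05, with S1pr1 at 81.8 to 137 CPM against 377 to 493 CPM. The genes were picked with their values known, some by a rule that requires no overlap, so the separation is no test.

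Of 42 tested residency genes, 3 were called higher and none lower, and the list's median was -0.14. At an unadjusted p under 0.05 there were 8 higher and 9 lower, and DESeq2 called 4 higher and 2 lower. The 3 were Xcl1, Ccr8 and Rbpj. Ccr8, the receptor for CCL1 and a mark of skin T cells, had 15.3 and 17.5 CPM in 1_02 and 22.8 and 25.2 CPM in 1_03, against 3.38 and 2.77 CPM in 1_04 and 8.43 and 6.42 CPM in 1_05 (log2 fold change 2.04 ± 0.24 (SE), adjusted p = 8.33e-05). Rbpj, the DNA-binding partner of Notch, had 627 and 572 CPM in 1_02 and 747 and 641 CPM in 1_03, against 275 and 372 CPM in 1_04 and 351 and 302 CPM in 1_05 (log2 fold change 0.99 ± 0.15 (SE), adjusted p = 0.0013). Cxcr6, a receptor of skin-resident T cells, averaged 611 ± 82.0 CPM in 1_02 and 1_03 and 455 ± 55.5 CPM in 1_04 and 1_05 (SD, n = 4 each) without passing (adjusted p = 0.18). Ccr8 therefore moved in the same direction as its ligand Ccl1. Cxcr3, the receptor for interferon-induced chemokines, had the smallest p of the genes called lower, with 70.7 and 53.7 CPM in 1_02 and 86.4 and 67.2 CPM in 1_03, against 268 and 258 CPM in 1_04 and 303 and 289 CPM in 1_05 (log2 fold change -2.01 ± 0.18 (SE), adjusted p = 4.9e-06). Each of its values in 1_02 and 1_03 was under 100 CPM, and each in 1_04 and 1_05 was above 200 CPM. A rule that named Cxcr3 requires that the sides do not overlap. Ccr1, an inflammatory chemokine receptor, averaged 10.7 ± 3.18 CPM in 1_02 and 1_03 and 2.84 ± 0.799 CPM in 1_04 and 1_05 (SD, n = 4 each, adjusted p = 0.00442). Its call was lost with the day 2 libraries alone, with 1 mean per side and without the 2 libraries of 1_04. Among 28 tested cytokine receptor genes 2 were higher (Il2ra and Il1r2) and 3 lower (Ifngr1, Ifngr2 and Il4ra). Il1r2, the interleukin 1 decoy receptor, had 148 and 151 CPM in 1_02 and 146 and 186 CPM in 1_03, against 26.6 and 44.6 CPM in 1_04 and 92.2 and 66.7 CPM in 1_05 (log2 fold change 1.57 ± 0.21 (SE), adjusted p = 0.000561). Ifngr1, the ligand-binding chain of the interferon-γ receptor, had 483 and 368 CPM in 1_02 and 329 and 368 CPM in 1_03, against 704 and 557 CPM in 1_04 and 749 and 709.8 CPM in 1_05 (log2 fold change -0.82 ± 0.14 (SE), adjusted p = 0.00467). Ifngr2, its signalling chain, had 3.37 and 3.26 CPM in 1_02 and 11.7 and 13.4 CPM in 1_03, against 21.7 and 19.8 CPM in 1_04 and 20.7 and 17.9 CPM in 1_05 (adjusted p = 0.0197). Both chains were therefore lower on the side where Ifng was higher. The Ifngr2 and Il4ra calls were lost in 6 and 5 of the 8 fits without 1 library.

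Of 37 tested transcription factor genes of effector and memory cells, 2 were called higher and 6 lower, with a median of -0.050. The 2 were Zeb2 and Id2. Id2, an inhibitor of E proteins in effector cells, had 599 and 629 CPM in 1_02 and 536 and 414 CPM in 1_03, against 309 and 355 CPM in 1_04 and 321 and 251 CPM in 1_05 (log2 fold change 0.81 ± 0.14 (SE), adjusted p = 0.00304). The 6 were Klf2, Tcf7, Lef1, Zeb1, Ets1 and Nr3c1. Zeb1, which favours memory where ZEB2 favours terminal effector cells, had 18.1 and 31.2 CPM in 1_02 and 39.8 and 39.4 CPM in 1_03, against 67.8 and 78.9 CPM in 1_04 and 82.3 and 75.0 CPM in 1_05 (log2 fold change -1.28 ± 0.26 (SE), adjusted p = 0.0132). Zeb1 and Zeb2 therefore changed in opposite directions, though their calls were lost in 3 and 2 of the 8 fits without 1 library (largest adjusted p 0.0572 and 0.0547). Nr3c1 encodes the glucocorticoid receptor and had 55.1 and 56.4 CPM in 1_02 and 78.5 and 99.8 CPM in 1_03, against 114 and 109 CPM in 1_04 and 131 and 143 CPM in 1_05 (log2 fold change -0.81 ± 0.18 (SE), adjusted p = 0.0242). Of 30 tested glucocorticoid target genes 1 was higher and 2 were lower (Tsc22d3 and Klf13), and the median was -0.34. Tsc22d3 (GILZ), a standard glucocorticoid target, had 46.8 and 73.9 CPM in 1_02 and 58.4 and 69.7 CPM in 1_03, against 153 and 181 CPM in 1_04 and 114 and 211 CPM in 1_05 (log2 fold change -1.40 ± 0.29 (SE), adjusted p = 0.0199). The targets Fkbp5, which averaged 22.7 ± 8.97 CPM in 1_02 and 1_03 and 17.2 ± 4.42 CPM in 1_04 and 1_05 (SD, n = 4 each), and Per1 were not called (adjusted p = 0.686 and 0.647), and these mice received no glucocorticoid. The calls of Nr3c1, Tsc22d3 and Klf13 were lost in 5, 6 and 7 of the 8 fits without 1 library. Among 53 tested interferon response genes none was called by edgeR (1 was higher and 11 were lower at an unadjusted p under 0.05, and DESeq2 called 3 lower). Of the 53, 46 had a log2 fold change below 0, against 6416 of all 12236 genes tested, and the list's median was -0.55. Ifit1 was 54.5 and 82.3 CPM in 1_02 and 49.2 and 44.8 CPM in 1_03, against 91.3 and 87.8 CPM in 1_04 and 112 and 102 CPM in 1_05 (adjusted p = 0.466). Pydc3, an interferon-inducible gene whose sides did not overlap, averaged 6.53 ± 0.376 CPM in 1_02 and 1_03 and 29.9 ± 6.31 CPM in 1_04 and 1_05 (SD, n = 4 each, adjusted p = 0.142). Socs3, a feedback inhibitor of cytokine receptors, was called lower, averaging 34.0 ± 8.98 CPM in 1_02 and 1_03 and 96.4 ± 13.9 CPM in 1_04 and 1_05 (SD, n = 4 each, adjusted p = 0.00441).

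**Figure D4:**
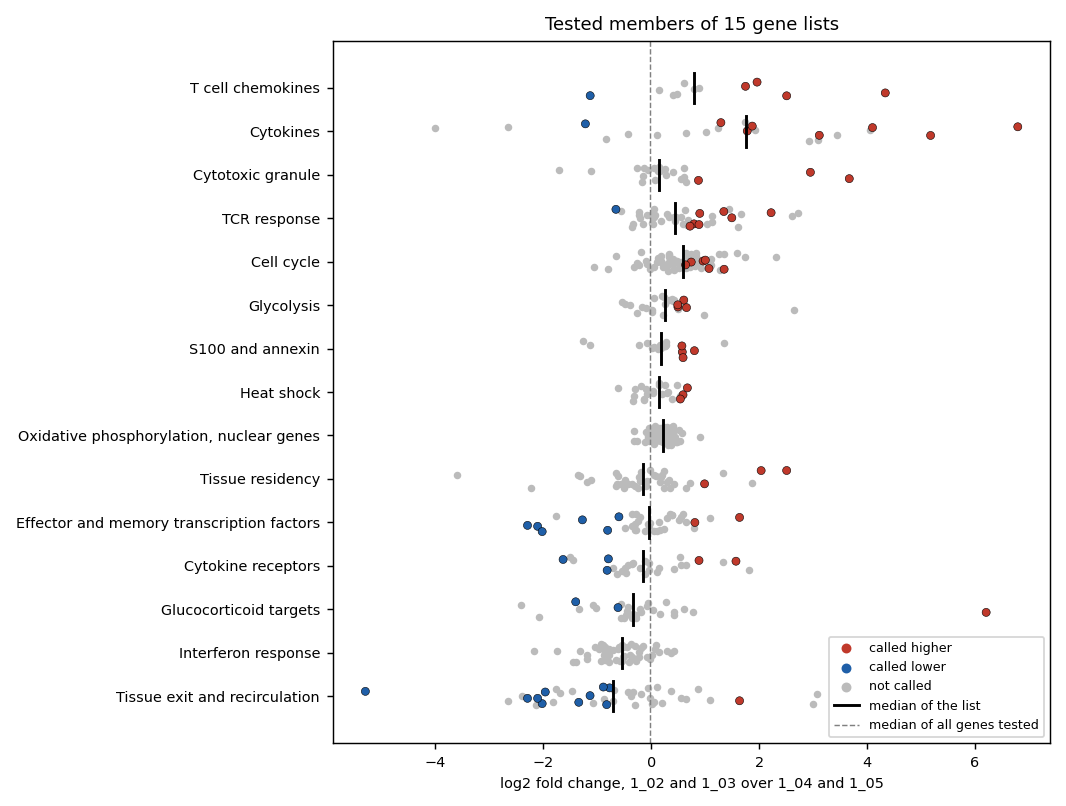
Log2 fold change (x axis, 1_02 and 1_03 over 1_04 and 1_05) of every tested member of 15 gene lists (rows). Each point is a gene, coloured points were called, black bars are list medians and the dashed line is the median of all genes tested. List medians run from -0.70 for tissue exit and recirculation to 1.76 for cytokines.

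By edgeR, proliferation genes were called higher in 6 of 66 tested and lower in none (22 higher and 2 lower at an unadjusted p under 0.05), while DESeq2 called 8 higher and 2 lower. The edgeR count was 3 to 5 higher in the 8 fits without 1 library, 3 of them without library 1 of 1_02 and without any 1 library of 1_03 or 1_04. Of the 66, 56 had a log2 fold change above 0 (median 0.58), against 5820 of all 12236 genes tested. Rrm2, the regulated subunit of ribonucleotide reductase, had 319 and 368 CPM in 1_02 and 213 and 246 CPM in 1_03, against 88.2 and 164 CPM in 1_04 and 97.2 and 95.5 CPM in 1_05 (log2 fold change 1.35 ± 0.20 (SE), adjusted p = 0.00105). Tubb5, a tubulin of dividing cells, averaged 1274 ± 96.7 CPM in 1_02 and 1_03 and 764 ± 83.3 CPM in 1_04 and 1_05 (SD, n = 4 each, adjusted p = 0.00203), and Tuba1b averaged 538 ± 58.7 CPM in 1_02 and 1_03 and 276 ± 36.4 CPM in 1_04 and 1_05 (SD, n = 4 each, adjusted p = 0.00099), though tubulin genes are close copies of each other. Ran, Asf1b and Rrm1 completed the called members, and each lost its call in 6 or more of the 8 fits without 1 library. Mki67, the usual proliferation mark, averaged 60.3 ± 16.3 CPM in 1_02 and 1_03 and 36.9 ± 9.13 CPM in 1_04 and 1_05 and Top2a 75.3 ± 3.22 CPM in 1_02 and 1_03 and 51.1 ± 14.8 CPM in 1_04 and 1_05 (SD, n = 4 each), and neither passed. The called members thus serve nucleotide supply, tubulin, nuclear transport and histone loading.

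Of 25 tested glycolysis genes 4 were called higher and none lower (median 0.25). Ldha, which turns pyruvate into lactate, had 1866 and 1679 CPM in 1_02 and 1844 and 1732 CPM in 1_03, against 1201 and 1244 CPM in 1_04 and 1414 and 1206 CPM in 1_05 (log2 fold change 0.49 ± 0.11 (SE), adjusted p = 0.023). Aldoa, Pgk1 and Pgam1 had log2 fold changes of 0.50 ± 0.12 (SE), 0.65 ± 0.16 (SE) and 0.60 ± 0.14 (SE). These were small shifts of abundant mRNAs, and each of the 4 calls was lost in 6 or 7 of the 8 fits without 1 library. None of 73 tested nuclear genes of oxidative phosphorylation was called by edgeR (16 were higher and 0 lower at an unadjusted p under 0.05, and DESeq2 called 3 higher), with a median of 0.21. In the lists for actin, amino acid transport, killer lectin-like receptors and mitochondrially encoded genes edgeR called none of 28, 22, 11 and 13 tested. At an unadjusted p under 0.05 these held 0, 3, 2 and 1 higher and 7, 1, 1 and 0 lower genes, and DESeq2 called 2 actin genes lower and 2 lectin receptor genes higher and 1 lower. Of 20 tested genes of the S100 and annexin list, which also holds Vim, Lgals1 and Capg, Anxa2, Capg, Lgals1 and Vim were called higher. Without 1 library these calls were lost in 2, 7, 4 and 0 of 8 fits, and only 1 of the 4 was called without library 2 of 1_03. Vim (vimentin) had 6840.0 and 5125 CPM in 1_02 and 5783 and 5031 CPM in 1_03, against 3212 and 3083 CPM in 1_04 and 3843 and 2929.9 CPM in 1_05 (log2 fold change 0.80 ± 0.12 (SE), adjusted p = 0.00143). Lgals1 (galectin 1) averaged 2408 ± 110.0 CPM in 1_02 and 1_03 and 1632 ± 281 CPM in 1_04 and 1_05 (SD, n = 4 each, adjusted p = 0.0178). Thy1 (CD90), on all mouse T cells, averaged 3321 ± 200.1 CPM in 1_02 and 1_03 and 2179.6 ± 222 CPM in 1_04 and 1_05 (SD, n = 4 each, adjusted p = 0.00304). Of 23 tested heat shock genes edgeR called Hspa1a, Hspa1b and Hsp90ab1 higher and none lower (5 higher and 1 lower at an unadjusted p under 0.05), and DESeq2 called 3 higher. Only Hspa1b was called without library 2 of 1_04, and the call of Hspa1a was lost in 4 of 8 fits without 1 library. Hspa1b had 1034 and 888 CPM in 1_02 and 1311 and 1149 CPM in 1_03, against 706 and 615 CPM in 1_04 and 705 and 707 CPM in 1_05 (log2 fold change 0.67 ± 0.10 (SE), adjusted p = 0.00105). Hspa1a and Hspa1b are nearly identical genes. Bcl2l1, which encodes the survival protein BCL-XL, was called higher (log2 fold change 0.75 ± 0.15 (SE), adjusted p = 0.0132), a call lost in 3 of the 8 fits without 1 library.

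Among the lists not yet counted, chemokine receptors had 2 of 18 tested genes higher and 1 lower, and costimulatory TNF receptors had 2 of 16 higher and 1 lower (Tnfrsf26). The AP-1 and immediate early list had 2 of 22 lower (Fosl2 and Socs3), lipid uptake and use had 1 of 28 lower (Abca1), and NF-kB had 1 of 20 higher (Nfkbid). By edgeR Bcl2l1 was the single call of 15 tested genes of its family, and Thy1 that of 20 T cell identity genes, where DESeq2 called 1 higher and 2 lower and 1 higher and 1 lower. Further genes with large falls came from several lists or from none. Abca1, a cholesterol exporter, had 0.612 and 0.171 CPM in 1_02 and 0.269 and 4.94 CPM in 1_03, against 13.8 and 14.1 CPM in 1_04 and 7.46 and 5.96 CPM in 1_05 (log2 fold change -3.33 ± 0.60 (SE), adjusted p = 0.00695). Its call was lost in 5 of 17 alternatives, among them the day 2 libraries alone and the fit without the 2 libraries of 1_02. Hs3st3b1, a heparan sulfate sulfotransferase, averaged 7.46 ± 1.31 CPM in 1_02 and 1_03 and 28.1 ± 6.76 CPM in 1_04 and 1_05 (SD, n = 4 each, adjusted p = 0.00435). Jakmip1, Tatdn2, Tcp11l2 and Tnfrsf26 were also lower, with log2 fold changes of -1.72 ± 0.36 (SE), -1.94 ± 0.44 (SE), -1.64 ± 0.24 (SE) and -2.41 ± 0.57 (SE). Their calls were lost in 4, 5, 0 and 8 of the 8 fits without 1 library. Sox12 had the largest fitted fall of all called genes, and 1 library held most of its counts: 0 and 0 CPM in 1_02 and 0.0897 and 0.265 CPM in 1_03, against 74.2 and 4.90 CPM in 1_04 and 1.70 and 2.60 CPM in 1_05 (log2 fold change -7.24 ± 1.33 (SE), adjusted p = 0.00892). Without library 1 of 1_04 its adjusted p was 0.17. Ssh2, Vps37b and P2ry10, chosen after their values were seen for their small adjusted p (1.42e-05, 5.73e-05 and 9.08e-05), averaged 194 ± 53.7 CPM in 1_02 and 1_03 and 469 ± 49.0 CPM in 1_04 and 1_05; 263 ± 44.6 CPM in 1_02 and 1_03 and 627 ± 70.4 CPM in 1_04 and 1_05; and 209.9 ± 19.8 CPM in 1_02 and 1_03 and 459 ± 48.8 CPM in 1_04 and 1_05 (SD, n = 4 each). SSH2 is a cofilin phosphatase and P2RY10 a lysophospholipid receptor.

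Markers of keratinocytes, mononuclear phagocytes and fibroblasts were present in all 8 libraries. Summed keratinocyte mRNA (38 genes) was 3935 to 10724 CPM in 1_02 and 1_03, against 5929 to 9124 CPM in 1_04 and 1_05. Krt14, of basal keratinocytes, had 989.8 and 757 CPM in 1_02 and 1311 and 1721 CPM in 1_03, against 1263 and 1348 CPM in 1_04 and 1044 and 1506 CPM in 1_05. Its sides overlapped, and 2 of 36 tested keratinocyte genes were called, both lower. Krt6b, a keratin of activated epidermis, was one of them, with 6.73 and 0.171 CPM in 1_02 and 242 and 341 CPM in 1_03, against 57.8 and 111 CPM in 1_04 and 518 and 442 CPM in 1_05 (log2 fold change -2.78 ± 0.51 (SE), adjusted p = 0.0148). It was lowest in 1_02, and without the 2 libraries of 1_02 its log2 fold change was 0.54. The call was lost in 6 of 8 fits without 1 library, and no keratinocyte gene was called lower by edgeR without library 2 of 1_03. Summed mononuclear phagocyte mRNA (33 genes) was 524 to 1254 CPM in 1_02 and 1_03, against 826 to 1335 CPM in 1_04 and 1_05, lowest in 1_02. Of 31 tested phagocyte genes 4 were called lower: Ctss and the MHC class II genes Cd74, H2-Aa and H2-Eb1. Without 1 library these calls were lost in 7, 4, 6 and 5 of 8 fits, and edgeR called none of the list lower without either library of 1_03. H2-Aa had 22.6 and 15.6 CPM in 1_02 and 155 and 142 CPM in 1_03, against 62.7 and 87.2 CPM in 1_04 and 145 and 129 CPM in 1_05. Like Krt6b it was lowest in 1_02, and without 1_02 the log2 fold changes of H2-Aa and H2-Eb1 were 0.56 and 0.20. The macrophage gene Lyz2 was at most 3.17 CPM, while the antigen-presenting cell gene H2-Ab1 had 57.8 and 47.3 CPM in 1_02 and 127 and 125 CPM in 1_03, against 73.8 and 119.8 CPM in 1_04 and 228 and 191 CPM in 1_05, with overlapping sides (not called, adjusted p = 0.0844). The part of these cells in the results above was not tested.

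Fibroblast genes other than Thy1, which T cells also express, summed to 85.1 to 246 CPM in 1_02 and 1_03, against 42.1 to 144 CPM in 1_04 and 1_05, and 2 of 15 tested were called higher (median log2 fold change 0.95). Col1a2 had 30.9 and 7.55 CPM in 1_02 and 15.9 and 34.4 CPM in 1_03, against 0.102 and 0.640 CPM in 1_04 and 1.54 and 0 CPM in 1_05 (log2 fold change 5.35 ± 1.04 (SE), adjusted p = 0.0198). Sparc, a matrix protein, was called too (log2 fold change 2.32 ± 0.51 (SE); lost in 5 of 8 fits without 1 library), while Col1a1 stood at 14.4 CPM or less in every library and Pdgfra, a defining fibroblast receptor, had no count in any. Other matrix and stromal genes among the largest rises were Bgn, Cytl1 and Myoc, with log2 fold changes of 3.50 ± 0.81 (SE), 4.08 ± 0.76 (SE) and 4.34 ± 1.03 (SE). The calls of Col1a2, Bgn and Myoc were lost in 6 or 7 of the 8 fits without 1 library, and that of Cytl1 in 1. Endothelial and pericyte mRNA (12 genes) summed to 0.31 to 19.3 CPM in 1_02 and 1_03, against 20.01 to 116 CPM in 1_04 and 1_05, most of it in 1_04. Acta2, of pericytes and smooth muscle, had 0.306 and 0.171 CPM in 1_02 and 0 and 0.0882 CPM in 1_03, against 48.1 and 29.6 CPM in 1_04 and 0.162 and 2.90 CPM in 1_05 and was called lower (adjusted p = 0.0229), a call lost in 6 of 8 fits without 1 library. Cdh5, a defining endothelial gene, was counted in 1_04 only (3.38 and 10.2 CPM). Melanocyte mRNA (6 genes) summed to at most 1.97 CPM in 1_02 and 1_03, against 31.9 and 12.8 CPM in 1_04 and at most 2.75 CPM in 1_05. Among CD4 and regulatory T cell genes Il2ra and Tnfrsf4 were called higher, both of which activated CD8 T cells express. Cd4 had no count in 1_02 and 1_03, against at most 2.25 CPM in 1_04 and 1_05, and Foxp3 was 2.45 to 28.3 CPM in 1_02 and 1_03, against 0.614 to 19.1 CPM in 1_04 and 1_05. edgeR called none of the 13, 1, 6 and 5 tested members of the lists for γδ T and innate lymphoid cells, B cells, mast cells and melanocytes. At an unadjusted p under 0.05 these held 2, 0, 0 and 1 genes, and DESeq2 called 1 γδ T or innate lymphoid gene lower. The neutrophil list had 1 call, Il1r2, which T cells also express. S100a8, a defining neutrophil gene, had 9.49 and 3.43 CPM in 1_02 and 79.9 and 65.6 CPM in 1_03, against 29.6 and 53.7 CPM in 1_04 and 64.3 and 41.4 CPM in 1_05, lowest in 1_02 and not called (adjusted p = 0.25). The part of the stromal, vascular and other immune cells in the results above was not tested.

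**Figure D5:**
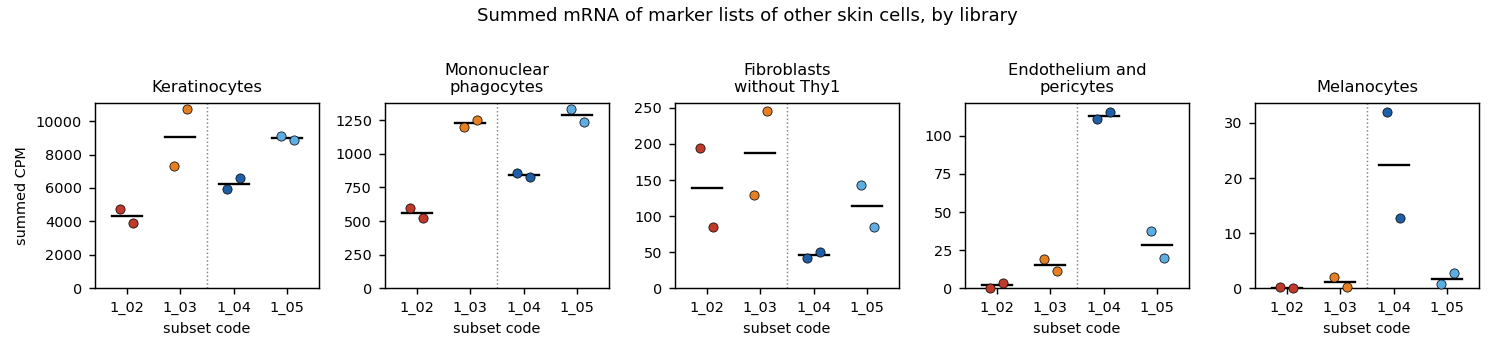
Summed CPM (TMM-scaled, linear axes from 0) of marker genes of other skin cells in each library, by subset code, with the mean of each code as a bar. Keratinocyte and phagocyte sums are lowest in 1_02, and endothelial and melanocyte sums are highest in 1_04.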

How the data were processed

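Bulk CEL-seq2 libraries of 4 sorted skin CD8 T cell subsets at day 2 were analysed, 2 libraries per subset. The authors deposited raw read counts per gene. The submitters' processing notes name GRCm38 as the genome build and list HTSeq, BWA 0.7.15 and bcl2fastq 2.2 as tools. The sources used here do not state if molecular identifiers were collapsed or strand was used in counting, so overlapping and antisense genes cannot be told apart. Total counts ran from 3384434 to 13629838 per library. The 7 spike-in rows (0 to 3 counts per library) were left out, and no column of another series was present. Of 18052 gene rows, 16843 were placed on GENCODE vM21 by symbol.

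The counts were fitted with edgeR 4.0.16 (R 4.3.3; limma 3.58.1): filterByExpr, TMM scaling, robust quasi-likelihood F tests and 1 mean for each of 8 header codes over the 16 libraries of the second experiment, which share the estimate of spread. The contrast was the mean of 1_02 and 1_03 minus the mean of 1_04 and 1_05, with Benjamini-Hochberg adjustment over 12236 genes and a threshold of 0.05. A fitted fold change of a gene near 0 counts depends on edgeR's prior count. The fit was also run on counts simulated from its own estimates of spread, without differences between the subsets of a side. Such a run cannot show whether the model suits these data. Alternatives were median-of-ratios scaling, no filter, DESeq2 1.42.0, day 2 libraries alone, 1 mean per side, each library left out and, chosen after seeing the data, each subset left out. Figures used Python 3.11.15, pandas 2.3.3 and matplotlib 3.10.9.

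The groups, the 37 gene lists (27 of biology, 10 of other cells) and the tests were chosen with earlier results of these data known. Genes named were taken from the sort and label genes, the top 15 calls by size of log2 fold change on either side (mean of 10 CPM or more on the higher side, no overlap, no predicted genes or receptor segments), up to 4 members of each biology list by p and up to 2 of each other-cell list by CPM. Not every gene that met this rule is printed, and other genes in the text were chosen after their values were seen. Promoters came from RefSeq (GRCm38.p6). A few genes are not reported here.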

Additional observations from a re-analysis of the deposited data

Results flagged for a closer look

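In 188 groups of 4 libraries (89 called genes, Itgae, Cd69, total counts, detected genes and the mitochondrial share, on either side), the highest or lowest library was compared with the other 3. In 13 groups its gap to the nearest library was a larger share of the range than Dixon's 95% critical value allows, and chance gives about 1 in 20.

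Within 1_02 and 1_03, Hsp90ab1 was highest in library 1 of 1_02 (2837 CPM), and Lgals1 (2573 CPM) and Rgs16 (238 CPM) were highest in library 2 of 1_02. Il1r2 (186 CPM) and Abca1 (4.94 CPM) were highest in library 2 of 1_03.

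Within 1_04 and 1_05, library 1 of 1_04 was highest for Sox12 (74.2 CPM) and Csf1 (48.0 CPM). Library 2 of 1_04 was highest for Rrm2 (164 CPM) and lowest for Hspa1b (615 CPM). Library 1 of 1_05 was highest for Aldoa (868 CPM), Nsg2 (54.4 CPM), Myoc (4.22 CPM) and Il3 (0.649 CPM).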

How the results depend on the processing

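All 203 calls kept their direction under the 13 settings other than leaving out a subset that gave them a value (202 of 202 with 1 mean per side). Fewer of the 203 stayed called: 153 with the day 2 libraries alone and 121 with 1 mean per side, against 202 with DESeq2 and 195 without the low-count filter. The count of called genes was 437 (182 higher, 255 lower) without the low-count filter, where 15832 genes were tested, and 446 (202 higher, 244 lower) with DESeq2. Without 1 library it ran from 89 to 251, with 44 to 93 higher and 45 to 158 lower. Leaving out a subset, an alternative chosen after seeing the data that leaves 2 libraries on 1 side, gave other counts: 75 genes (54 higher, 21 lower) were called without 1_02, 61 were higher without 1_03, 109 (38 higher, 71 lower) were called without 1_04 and 97 (44 higher, 53 lower) without 1_05. Of 91 called genes followed singly, 39 kept their call in all 8 fits without 1 library and 21 in all 17 alternatives.

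The sort markers were not called with all 8 libraries, and both changed sign. The log2 fold change of Itgae was -0.0346 with 1 mean per side and -0.0593 to 1.10 without 1 library (-0.0270 without library 1 of 1_02). It passed the test in all 4 fits without a subset, at 2.2 without 1_02 and 2.53 without 1_05, but -1.72 without 1_03 and -2.05 without 1_04 (edgeR adjusted p = 0.00146, 0.00397, 0.0452 and 0.00272). Each side pairs a code with high and a code with low Itgae mRNA, so these fits set a single code against such a pair. The log2 fold change of Cd69 was -0.0814 to 0.173 without 1 library (-0.0107 without library 2 of 1_05), -0.0259 without 1_03 and -0.167 without 1_04. Without 1_02, H2-Aa was 0.56, H2-Eb1 0.20 and Krt6b 0.54. Beyond these fits with fewer samples, the causes were not tested. No paired analysis was possible because the headers do not tell sample A from sample B. Depth limits genes such as Il3 and Csf2, which were near 0 on 1 side.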
